A study of Mus musculus with 15 samples.

Results

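The cAMP signalling genes described here are 46 of the 35976 genes in the count table of the study. They were chosen by symbol: every adenylyl cyclase (Adcy followed by a number, 10 genes), every phosphodiesterase (Pde followed by a number and a letter, 24 genes), the 6 subunits of protein kinase A (PKA), and the CREB family with its coactivators (Creb1, Crem, Atf1 and Crtc1 to Crtc3, 6 genes). The rule itself uses symbols alone.

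The study sequenced nuclear RNA of the ventral tegmental area, the midbrain region that holds dopaminergic neurons, from mice at 3 stages of lever pressing for food or intravenous cocaine. All mice were male heterozygous DAT-Cre animals of 8 to 12 weeks (B6.SJL-Slc6a3tm1.1(cre)Bkmm/J), in which Cre recombinase is expressed from the dopamine transporter gene. All carried AAV5-DIO-KASH-HA, a virus that puts an HA-tagged nuclear envelope protein on cells with Cre, and 14 days were given for transduction. Nuclei were sorted by HA staining, and each sample pooled the tissue of 2 mice.

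Dopaminergic (HA-positive) nuclei were taken after food training (FT_DA, n = 4), in which mice learned over 7 days to press a lever for food and had no cocaine. A second group had the same 7 days of food training and then cocaine, and was taken after the last maintenance session (MN_DA, n = 3). Cocaine was given at 0.3 mg/kg per infusion for 5 days and 1.0 mg/kg per infusion for 10 days in sessions of 1 hour. The third had the same food training and cocaine schedule and then 21 days of abstinence in the home cage (CRV_DA, n = 4). HA-negative nuclei came from food-trained mice (FT_nDA, n = 4). That fraction holds every nucleus without the tag, so it mixes other neurons, glia and any dopaminergic neuron that the virus did not reach.

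Adenylyl cyclases make cAMP when stimulatory G proteins are active, and inhibitory G proteins, such as those coupled to D2 autoreceptors on dopaminergic neurons, hold several of them back. Phosphodiesterases break cAMP, cGMP or both. cAMP binds the regulatory subunits of PKA and frees the catalytic subunits, which phosphorylate CREB in the nucleus, and the CRTC proteins join CREB as coactivators on genes that carry a cAMP response element (CRE).

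The CRE itself was looked for in the promoters of these genes, because CREB members are among them. RefSeq promoter windows (GRCm38.p6, 250 bases before to 50 bases after each start) were found for 35 of the 46 genes. The full palindrome TGACGTCA occurred in 1 of the 35, Prkar1a (2.86%), against 2.03% of 27025 genes. The short form TGACG, on either strand and counted also inside the full site, occurred in 15 of the 35 (42.9%) against 23% of all genes. These 35 genes have more annotated starts than most: counted by promoter window, the short form was in 17 of 72 (23.6%) against 20.8% of 32851. By class, it was found for 5 of 6 PKA subunits, 7 of 17 phosphodiesterases, 2 of 8 cyclases and 1 of 4 genes of the CREB group. The sequences below give 1 upstream match each for 4 PKA subunits and for the phosphodiesterase Pde4a. Further upstream matches of Prkaca (6 bases before the start) and Prkar1a (151 and 100 bases before a start) are not shown. Pde4a was called between the populations by edgeR without pairing the libraries by number but not with it. Each sequence is a run of 30 bases in the direction of the gene, with the matched letters in capitals. CGTCA is the short form on the opposite strand. The distance given is that of the first matched letter from the start.
Prkar1a, chr11:109650889-109650918, plus strand, in the gene but in no annotated exon, 49 bases before an internal start: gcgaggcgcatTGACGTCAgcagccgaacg
Prkacb, chr3:146813031-146813060, minus strand, outside annotated genes, 102 bases before the start: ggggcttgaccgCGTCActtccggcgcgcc
Prkaca, chr8:83972846-83972875, plus strand, outside annotated genes, 120 bases before the start: gtctgcaactcgCGTCActcatccaggagc
Prkar1b, chr5:139150033-139150062, minus strand, within the span of Gm15672 but in no annotated exon, 49 bases before the start: tagagggcggagTGACGggcaggaggacga
Pde4a, chr9:21184039-21184068, plus strand, in the gene but in no annotated exon, 50 bases before an internal start: ggcacagctcgaCGTCAggctggggaggag
A match of letters describes the window and does not show that a factor binds there.

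Total counts ran from 25813697 (FT_DA replicate 3) to 59046618 (CRV_DA replicate 2). Of the 46 genes, 37 to 43 had a count in each dopaminergic library and 45 or 46 in each non-dopaminergic library. Values of exactly 0 were frequent and small values rare: a library had 12090 to 21135 genes at 0 and 165 to 779 at 1 to 3 counts. In FT_DA replicate 3, 541 genes were at 0 although each of the other FT_DA libraries had at least 100 counts (0 to 411 such genes in the other libraries, each against its own group). A 0 is therefore given here as listed at 0, with no bound on the level behind it and no fold. The summed level of 10 dopamine neuron markers was 6620 to 12385 CPM (the usual depth-scaled count unit, here with TMM factors) in FT_DA and 347.7 to 530 CPM in FT_nDA, and 10 of 10 were higher in FT_DA by the test used below. In each library the deviation of log2 CPM was regressed on the GC percent of the transcript. The slope was -0.0378 to -0.0224 in the 3 MN_DA libraries and -0.0248 in FT_nDA replicate 2, against -0.0167 to 0.0204 in the other dopaminergic libraries and 0.0209 to 0.0322 in the other non-dopaminergic ones. The 4 lowest slopes thus include every MN_DA library, and FT_DA replicate 2, at -0.0167, came next.

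Levels of different genes were compared as CPM per kb of the longest annotated transcript. All values in this paragraph are such levels with the SD over libraries. The exons of all transcripts of a gene can span more bases, 12006 against 4207 for Pde4d and 8772 against 4347 for Prkacb. Ranks and shares per kb, here and below, depend on that choice of length. In FT_DA the most abundant member was Prkar1a, the type I alpha regulatory subunit of PKA, at 140 ± 25.7 (n = 4), and it ranked first in all 4 groups. Pde4d, a cAMP-specific phosphodiesterase, followed in FT_DA at 64.1 ± 15.3, and then Prkar1b, the type I beta regulatory subunit, at 60.9 ± 17.2. Pde4d and Prkar1b differed by less than their spread. Prkacb, the beta catalytic subunit, stood at 34.2 ± 7.93, Pde4a at 31.5 ± 7.35 and the cyclase Adcy9 at 27.2 ± 8.56, again closer to each other than their SDs. Among the 46, the order of levels was much the same in every pair of groups, with Spearman rho from 0.901 (FT_nDA and MN_DA) to 0.972 (CRV_DA and FT_DA), as a description over genes that share libraries and lengths.

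Within the cyclases, Adcy9, which is insensitive to forskolin, and Adcy3, a calcium and calmodulin-regulated isoform, each made up about the same share of the FT_DA total: 26.2% ± 5.64 and 25.7% ± 4.53 (n = 4). In FT_nDA, Adcy9 had a similar share, 25.6% ± 4.83, and Adcy3 had 15.1% ± 3.46. Adcy2, which responds to G beta-gamma, followed at 18.9% ± 2.76 in FT_DA. Adcy5, the Gi-inhibited isoform that dominates in the striatum, made up 6.73% ± 3.92, and Adcy10, the soluble cyclase activated by bicarbonate, 0.167% ± 0.0595.

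For PKA, type I regulatory subunits made up most of the regulatory level in FT_DA, with Prkar1a at 65.4% ± 10.5 and Prkar1b at 28.7% ± 8.88. Prkar2b, the type II beta subunit typical of brain, had 3.51% ± 2.07 and Prkar2a 2.42% ± 0.384. The summed level of the regulatory genes was 213 ± 7.29 CPM per kb and that of the 2 catalytic genes 53.3 ± 4.65, of which Prkacb was 63.9% ± 11.1. In the CREB group, Crtc3 was the most abundant coactivator in FT_DA at 12.5 ± 4.72 CPM per kb, ahead of Crtc2 at 4.25 ± 2.84 and Crtc1 at 1.30 ± 0.875; the Crtc2 mean includes replicate 3, where it was listed at 0. Creb1 was the most abundant of the 3 transcription factors, at 9.45 ± 2.63 CPM per kb.

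**Figure D1:**
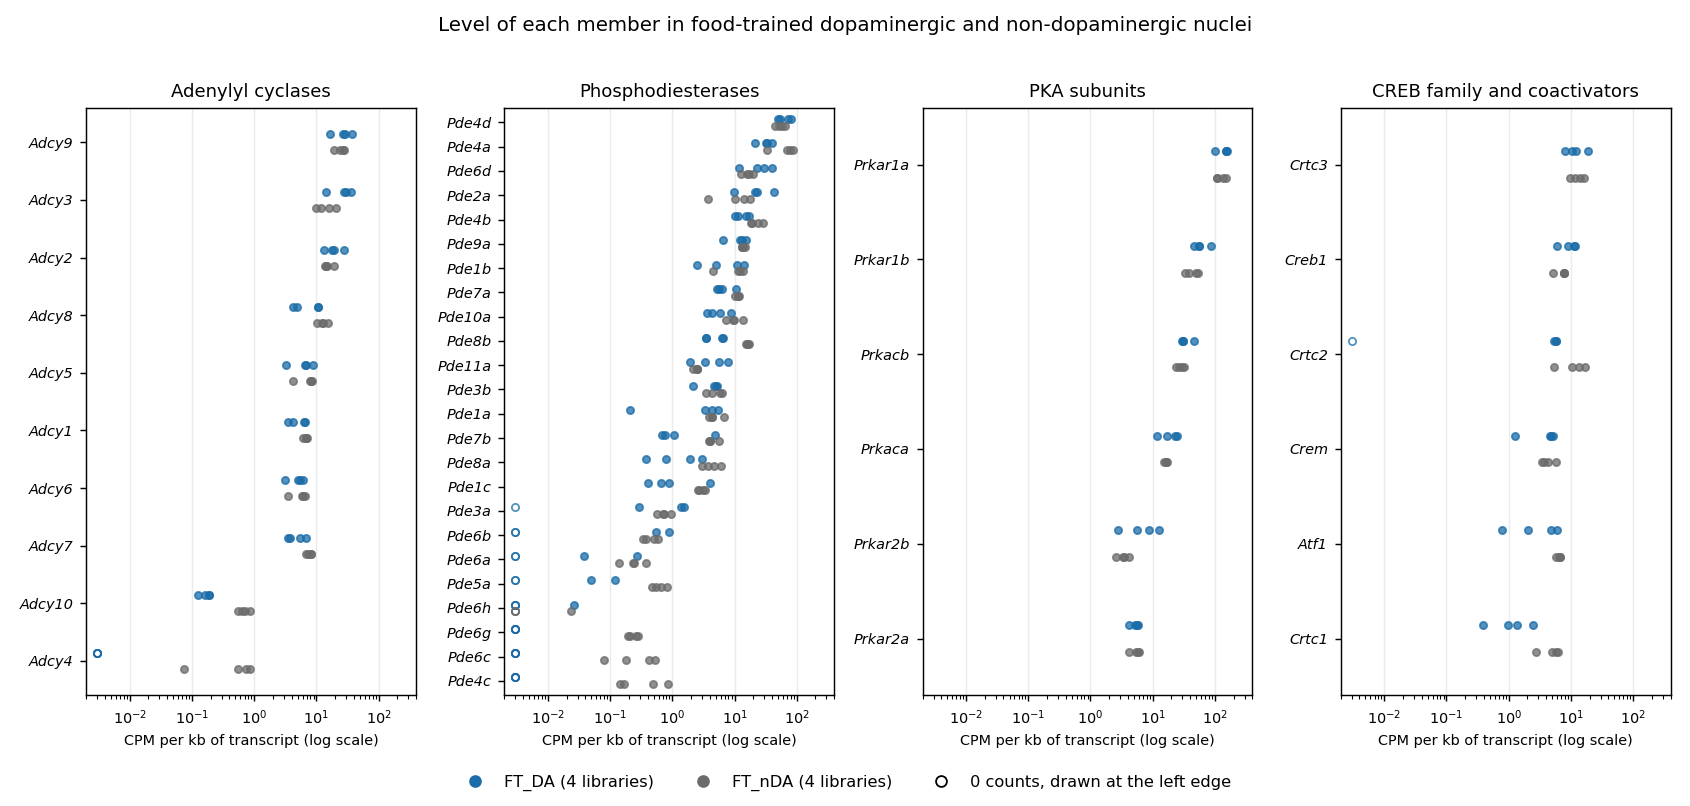
CPM per kb of the longest transcript (horizontal, log scale) of the 46 genes in the 4 FT_DA (blue) and 4 FT_nDA (grey) libraries, 1 point per library, in 4 panels by class. Open points at the left edge are libraries with 0 counts; Adcy4, Pde4c, Pde6c and Pde6g have only open points in FT_DA, while Prkar1a is the highest gene of all panels.

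The first comparison asks how dopaminergic nuclei differ from the other nuclei of the region in mice without cocaine. Of the 41 genes with more than 3 counts in some library of both populations, 3 were lower in FT_DA and 0 higher by edgeR's quasi-likelihood test with adjustment over all genes: the phosphodiesterases Pde8b and Pde4a and the coactivator Crtc1. They are 7.32% of the 41, against 7.56% of the 18663 genes of that kind called in either direction and 3.71% called lower, so the count does not set these genes apart. Another 4 genes were called lower (Adcy4, Pde4c, Pde6c and Pde6g), but they were listed at 0 in every FT_DA library and passed the filter through FT_nDA alone, so that they had to differ. With them the calls were 7 of 45 tested (15.6%; Pde6h failed the filter on low counts), against 12.8% of all 19786 genes in either direction and 9.17% lower. Of the 2534 calls over all genes, 1123 likewise had a population with at most 3 counts in each library. The median log2 fold change was -0.27 over the 41 and -0.14 over the genes of that kind. At an unadjusted p under 0.05 stood 17 of the 45 (37.8%), against 24.3% of all genes, and in 11 of the 45 (24.4%) all FT_DA libraries lay below all FT_nDA libraries, against 19.1% of all genes, and in 0 they lay above, against 6.87%. DESeq2 called 10 of the 45, where it called 19.6% of all genes, and limma-voom 11, where it called 21.6%. The counts of 17, 11, 10 and 11 each include the 4 genes at 0. Of the 41, 13 (31.7%) had an unadjusted edgeR p under 0.05, against 19.8% of the genes of that kind. The 7 calls were also lower without FT_nDA replicate 2, the library with the low GC slope. Because the numbered FT_DA and FT_nDA libraries varied together, the libraries were also paired by number (replicate block): that fit called 2 of the 45 against 3.92% of all genes, Pde8b (lower, adjusted p = 0.0278) and Pde2a (higher, adjusted p = 0.0464).

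Pde8b, a cAMP-specific enzyme with high affinity that sits on chromosome 13 (chr13:95024454-95250336, minus strand, GRCm38), showed the clearest difference. Its level was 26.6, 14.5, 14.6 and 27.7 CPM in FT_DA and 73.5, 69.3, 66.3 and 64.9 CPM in FT_nDA. All 4 dopaminergic libraries lay below every non-dopaminergic one, and within FT_nDA the values were tight. Pde8b was 3.33-fold lower (log2 fold change -1.74, SE 0.28, edgeR adjusted p = 0.0067). It passed with any 1 of the 8 libraries left out, at -1.91 to -1.57.

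Crtc1, a CREB coactivator enriched in brain (chr8:70382355-70439579, minus strand), was measured at 10.2, 13.9, 3.97 and 25.3 CPM in FT_DA. In FT_nDA it reached 51.6, 28.2, 59.8 and 63.8 CPM. The groups did not overlap, but FT_nDA replicate 2, at 28.2, was close to FT_DA replicate 4. Crtc1 was 3.87-fold lower in FT_DA (log2 fold change -1.95, SE 0.54, edgeR adjusted p = 0.045). With 1 library left out it missed the threshold 5 of 8 times, with adjusted p from 0.077 (without FT_DA replicate 2) to 0.119 (without FT_nDA replicate 3), in between without FT_DA replicate 1 or FT_nDA replicate 1 or 4. It also missed it with the block (0.0987), with upper quartile scaling and without the filter on low counts. It passed with at least 10 counts in every library (edgeR adjusted p = 0.0238), an offset for GC content (0.0313), limma-voom (adjusted p = 0.0368) and DESeq2 (adjusted p = 0.00391). In edgeR fits of all 15 libraries it passed without and with a term for the 4 libraries of low GC slope (0.0382 and 0.0388).

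Its relatives did not pass. Crtc2 stood at 16.3, 17.0, 0 and 17.6 CPM in FT_DA and at 31.1, 16.3, 51.4 and 40.4 CPM in FT_nDA, with FT_DA replicate 3 at 0 and the groups overlapping (log2 fold change -1.48, SE 1.15, edgeR adjusted p = 0.511). Crtc3 had 63.7 ± 24.2 CPM in FT_DA and 66.8 ± 15.3 in FT_nDA (n = 4 each). In FT_nDA, Crtc1 and Crtc2 made up 16.7% and 38.0% of the summed CRTC level per kb, and in FT_DA 7.14% and 24.6%, as a description that counts the listed 0 of Crtc2. For the transcription factors, log2 fold changes were 0.38 (Creb1), -0.14 (Crem) and -0.94 (Atf1), none past the threshold.

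Pde4a (chr9:21165714-21213248, plus strand), from the cAMP-specific PDE4 family that rolipram inhibits, was measured at 153, 147, 101 and 184 CPM in FT_DA. The FT_nDA libraries had 405, 157, 360 and 327 CPM. Replicate 2 of FT_nDA fell inside the FT_DA range and the other 3 lay far above it. Pde4a was 2.17-fold lower in FT_DA (log2 fold change -1.12, SE 0.31, edgeR adjusted p = 0.0483). With 1 library left out it missed the threshold 6 of 8 times, from 0.0763 (without FT_DA replicate 3) to 0.151 (without FT_nDA replicate 1). The others were FT_DA replicates 1 and 2 and FT_nDA replicates 3 and 4. It also missed it with the block (0.116), and narrowly with other scalings, without the filter on low counts and with limma-voom (0.0522 to 0.0593). It passed with at least 10 counts in every library (edgeR adjusted p = 0.0314), an offset for GC content (0.0142) and DESeq2 (adjusted p = 0.00765). In edgeR fits of all 15 libraries it passed without and with a term for the 4 libraries of low GC slope (0.0303 and 0.00536).

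The rest of the PDE4 family did not move as 1 group. Pde4d was similar in both populations, at 270 ± 64.5 CPM in FT_DA and 229 ± 35.6 in FT_nDA (n = 4 each). Pde4b had 57.8 ± 14.4 and 97.5 ± 20.6 CPM, with no overlap between the groups (log2 fold change -0.78, SE 0.24, edgeR adjusted p = 0.0669). Of the 8 cAMP-specific phosphodiesterases, 7 had a negative log2 fold change. Leaving aside Pde4c, listed at 0 in FT_DA, these were 6 of 7, of which Pde8b and Pde4a passed without the block and Pde8b alone with it. Over all genes with counts in both populations, 55.8% had a negative log2 fold change and 3.71% were called lower without the block.

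The 4 genes listed at 0 in all FT_DA libraries had low values in FT_nDA. Adcy4, a cyclase stimulated by G beta-gamma, was at 3.65, 3.17, 2.38 and 0.323 CPM in FT_nDA. It was also at 0 in every MN_DA and CRV_DA library, the only one of the 46 without a count in all 11 dopaminergic libraries. Pde4c, another PDE4 enzyme, was at 0.507, 0.58, 2.97 and 1.66 CPM in FT_nDA. Pde6c, the cone catalytic subunit, was at 1.52, 1.20, 0.227 and 0.516 CPM. Pde6g, the rod inhibitory subunit, was at 0.466, 0.435, 0.589 and 0.624 CPM. With the replicate block none of the 4 passed (adjusted p 0.161 to 0.202). Pde6h, the cone inhibitory subunit, had at most 9 counts in any library. Pde5a, a cGMP-specific enzyme, had 0.319 ± 0.429 CPM in FT_DA and 4.77 ± 1.19 in FT_nDA, without overlap but not past the threshold (edgeR adjusted p = 0.169).

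On the higher side no member passed without the block, and Pde2a alone passed with it. Adcy3 (chr12:4133103-4213525, plus strand) was at 156, 170, 80.4 and 204 CPM in FT_DA and 90.3, 55.9, 65.9 and 118 CPM in FT_nDA. FT_DA replicate 3 lay within the FT_nDA range and the other 3 above it (log2 fold change 0.86, SE 0.33, edgeR adjusted p = 0.141). With 1 library left out it ran from 0.68 (without FT_DA replicate 4) to 1.10 and passed in 1 of 8 fits, the one without FT_DA replicate 3 (edgeR adjusted p = 0.0265). Of the exonic bases of Adcy3, 22.1% overlap Cenpo on the opposite strand, and no use of strand in counting is given in the sources used here.

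Prkar2b, at 9.31, 29.4, 42.0 and 18.9 CPM in FT_DA and 11.4, 8.64, 14.0 and 11.5 in FT_nDA, varied most, relative to its mean, among the PKA genes in FT_DA. Its difference was 1.10 (SE 0.48, edgeR adjusted p = 0.203), and with 1 library left out it ran from 0.76 (without FT_DA replicate 3, the highest library) to 1.37. It passed in 1 of 8 such fits, the one without FT_DA replicate 1, the lowest library (edgeR adjusted p = 0.0481). Pde2a, a dual enzyme that cGMP activates, had 91.2, 41.4, 97.5 and 181 CPM in FT_DA and 60.0, 16.0, 42.9 and 75.9 CPM in FT_nDA. In each population replicate 2 was the lowest and replicate 4 the highest. On the log2 scale the difference was 1.06 with an SE of 0.53 (adjusted p = 0.272 by edgeR) without the block and 1.08 with it, where Pde2a passed. Without the block and with 1 library left out, Pde2a ran from 0.62 (without FT_DA replicate 4, the highest library) to 1.35 and passed in 0 of 8 fits. Of its exonic bases, 64.3% are shared with Gm45837 on the same strand, so its counts are uncertain.

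The higher side also held Pde11a, a dual enzyme, at 0.94 (SE 0.49, edgeR adjusted p = 0.286), and Prkar1b at 0.46 (SE 0.25, adjusted p = 0.307). With 1 library left out Pde11a ran from 0.56 to 1.20 and Prkar1b from 0.28 to 0.61. Both overlapped between the populations. For PKA as a whole, 5 of 6 genes had a positive log2 fold change, from -0.09 (Prkar2a) to 1.10, with none past the threshold. Summed over the class, the level was 267 ± 5.27 CPM per kb in FT_DA and 223 ± 20.4 in FT_nDA, and for phosphodiesterases 216 ± 28.0 and 261 ± 25.8.

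**Figure D2:**
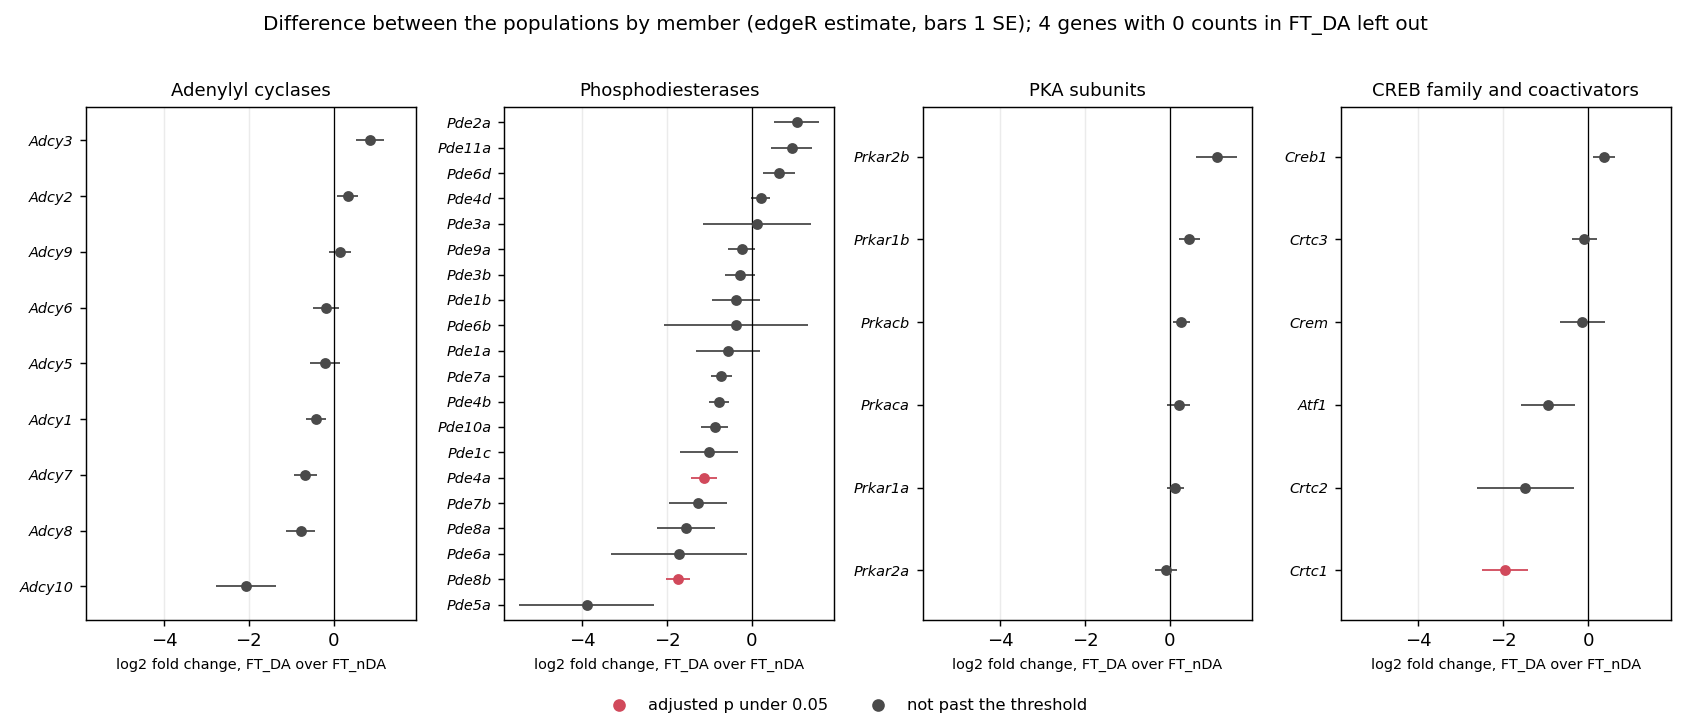
The log2 fold change of FT_DA over FT_nDA (horizontal) with 1 SE for 41 genes in 4 class panels. Points are red where the edgeR adjusted p without the replicate block was under 0.05. Pde8b, Pde4a and Crtc1 are the red points, all left of 0; the 4 genes with 0 counts in FT_DA are left out since no fold is given for them.

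Markers of other cells differed between the populations as well. The summed level of 10 oligodendrocyte markers was 1788 to 2830 CPM in FT_DA and 9566 to 23223 in FT_nDA, with 7 of 10 lower by the test. For 7 microglial markers the range was 308.2 to 537.5 CPM against 1061 to 1735, with 5 lower. Precursors of oligodendrocytes (5 markers, 16.67 to 79.22 against 227.1 to 373.5 CPM, 1 lower), astrocytes (6 markers, 1331 to 1899 against 1562 to 3533 CPM, 2 lower) and vascular cells (6 markers, 9.84 to 184 against 232.7 to 443.6 CPM, 0 called) also had lower sums in FT_DA, though those of astrocytes overlapped. Markers of GABA neurons (6 markers, 446.2 to 1132 against 743.8 to 1510 CPM, 0 called) and of glutamate neurons (3 markers, 169.4 to 676.3 against 374.7 to 642.6 CPM, 1 higher) overlapped too. With the replicate block 9 of the 10 dopamine neuron markers were called higher, all but Foxa2 (edgeR adjusted p = 0.0595). For the other cells the calls were then 7 for oligodendrocytes, 5 for microglia, 2 for astrocytes, 0 for precursors and 0 for glutamate neurons. No gene of these lists was at 0 in all dopaminergic libraries. Their part in the differences of the cAMP genes was not tested, and in such bulk samples fewer cells of a type cannot be told apart from less RNA per cell.

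Around these genes, a list of 36 further pathway genes (G protein alpha subunits, PKA inhibitors and anchors, other cAMP effectors, PKA substrates and CREB partners) gave 1 called higher and 7 called lower in FT_DA, all by edgeR, where 3.63% and 9.17% of all genes were called. With the replicate block 0 were called higher and 4 lower (Gnao1, Akap8, Arpp21 and Sik3), where 2.09% and 1.83% of all genes were called. Pkia, a protein inhibitor of PKA, had 70.2 ± 13.9 CPM in FT_DA and 35.7 ± 6.46 in FT_nDA (n = 4 each, edgeR adjusted p = 0.0234, and 0.0639 with the block). Gnao1, the inhibitory alpha subunit abundant in neurons, was lower, at 78.8 ± 11.8 against 193 ± 30.3 CPM (edgeR adjusted p = 0.0067, and 0.0143 with the block). Of the PKA anchors, Akap8 had a log2 fold change of -1.52 (adjusted p = 0.016 with the block) and Akap9 one of -1.08 (adjusted p = 0.051 with the block), both by edgeR. Sik2 and Sik3 are kinases that keep CRTC proteins out of the nucleus. Sik3 was at 13.5 ± 8.08 against 51.6 ± 5.92 CPM (edgeR adjusted p = 0.0383 with the block) and Sik2 at 19.9 ± 7.91 against 43.6 ± 8.25 CPM (edgeR adjusted p = 0.0475, and 0.116 with the block). Arpp21, a PKA substrate, had the largest log2 fold change of the called genes with a count in FT_DA, -2.33, at 60.4 ± 14.9 against 298 ± 15.6 CPM. Popdc2, a cAMP-binding membrane protein, was listed at 0 in FT_DA, entered the test through FT_nDA alone, and had 0.861 ± 0.511 CPM in FT_nDA (edgeR adjusted p = 0.189 with the block).

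A list of 10 genes known as CREB targets did not share a direction between the populations, with 5 positive and 5 negative log2 fold changes. Nr4a2, which is also a dopamine neuron identity factor, was higher in FT_DA (110 ± 53.4 against 17.7 ± 1.73 CPM, edgeR adjusted p = 0.00632, and 0.0159 with the block). Nr4a1 had 4.34 ± 3.19 against 21.5 ± 6.74 CPM (edgeR adjusted p = 0.0417, and 0.0921 with the block). Fos, an immediate early gene, had 11.8 ± 8.74 and 11.6 ± 3.48 CPM.

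The second set of comparisons asks what differed in dopaminergic nuclei between the stages. By edgeR, 0 of the 42 genes tested differed between any 2 stages. Over all 19060 genes the test called 0.131% between MN_DA and FT_DA, 0% between CRV_DA and FT_DA, and 0.178% between CRV_DA and MN_DA, so calls were few over all genes. At an unadjusted p under 0.05 stood 4 genes (Creb1, Pde2a, Adcy10 and Pde3b) for MN_DA against FT_DA, where the share of all genes was 11.6%. For CRV_DA against FT_DA it was 1 gene, Pde4c, with 4.3% of all genes, and for CRV_DA against MN_DA 5 genes (Crtc1, Pde4d, Pde3b, Pde4c and Adcy5), with 9.92%. As shares of the 42 these counts are 9.52%, 2.38% and 11.9%. Pde4c, listed at 0 in FT_DA and MN_DA, entered the test through CRV_DA alone, so that it had to differ in the last 2 comparisons. Among genes with more than 3 counts in some library of both groups, the counts were 4 of 41 (8.04% of all such genes), 0 of 41 (1.93%) and 4 of 41 (7.16%).

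DESeq2 called 1, 0 and 1 of them in these comparisons: Adcy10 between MN_DA and FT_DA, where it called 4.69% of all genes, and Crtc1 between CRV_DA and MN_DA, where it called 3.84%. Between CRV_DA and FT_DA it called 0.656% of all genes. With limma-voom 0 members were called in each, where it called 0.0472% of all genes between MN_DA and FT_DA, 0% between CRV_DA and FT_DA and 0.157% between CRV_DA and MN_DA. With so few calls over all genes these counts of 0 say little about the members. FT_DA replicate 3, the library with 541 genes at 0 described above, is not among the 10 dopaminergic libraries of the second deposited table. Without it edgeR called 0 members against food training, 43 genes in place of 25 between MN_DA and FT_DA, and 0 between CRV_DA and FT_DA. The log2 fold change took the other sign for 5 of 42 members in the first comparison and 13 of 42 in the second, among them Pde7b (-0.27 became 0.88) and Pde6a (-0.51 became 2.02) for MN_DA, and Crtc2 (0.30 became -0.11) for CRV_DA. The 2 comparisons against food training share the FT_DA libraries, and each gene's values are therefore given side by side.

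Crtc1 had the lowest p-value of all 42 in the comparison of abstinence with maintenance. After the 10.2, 13.9, 3.97 and 25.3 CPM of FT_DA, it stood at 3.49, 4.04 and 8.32 CPM in MN_DA and at 35.7, 17.0, 15.6 and 30.3 CPM in CRV_DA. All 4 abstinence libraries lay above all 3 maintenance libraries, and FT_DA spread over both ranges. CRV_DA over MN_DA gave a log2 fold change of 2.22 with an SE of 0.71 (adjusted p = 0.347 by edgeR and 0.0264 by DESeq2), MN_DA over FT_DA gave -1.33 (SE 0.69) and CRV_DA over FT_DA 0.88 (SE 0.62). Without FT_DA replicate 3 these last values were -1.64, with MN_DA below the other 3 FT_DA libraries, and 0.58. Over all fits without 1 library, MN_DA over FT_DA ran from -1.83 to -0.82 and CRV_DA over FT_DA from 0.58 to 1.40. With an offset for GC content, CRV_DA over MN_DA became 1.89 (edgeR adjusted p = 0.527). A term for the 4 libraries of low GC slope rests on FT_nDA replicate 2 alone to separate slope from stage. With that term CRV_DA over MN_DA became 1.17 and MN_DA over FT_DA -0.29.

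Crtc2 also had its lowest mean in MN_DA. It stood at 16.3, 17.0, 0 and 17.6 CPM in FT_DA and at 0, 9.56 and 2.63 in MN_DA. In CRV_DA it was at 17.2, 13, 13.6 and 19.0 CPM. Its log2 fold change of CRV_DA over FT_DA was 0.30 with FT_DA replicate 3 and -0.11 without it. MN_DA and CRV_DA did not overlap, but MN_DA replicate 1 and FT_DA replicate 3 were listed at 0, the libraries with 411 and 541 genes at 0 against at least 100 counts in the rest of their group, and the SE was wide (log2 fold change 1.96, SE 1.64, adjusted p = 0.878). Without overlap and higher in CRV_DA than in MN_DA were thus 2 of the 42, Crtc1 and Crtc2, against 7.56% of all genes. Crtc3 had 68.4, 40.2 and 31.8 CPM in MN_DA and 47.4, 32.7, 52.5 and 67.2 in CRV_DA, with full overlap (log2 fold change 0.09).

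**Figure D3:**
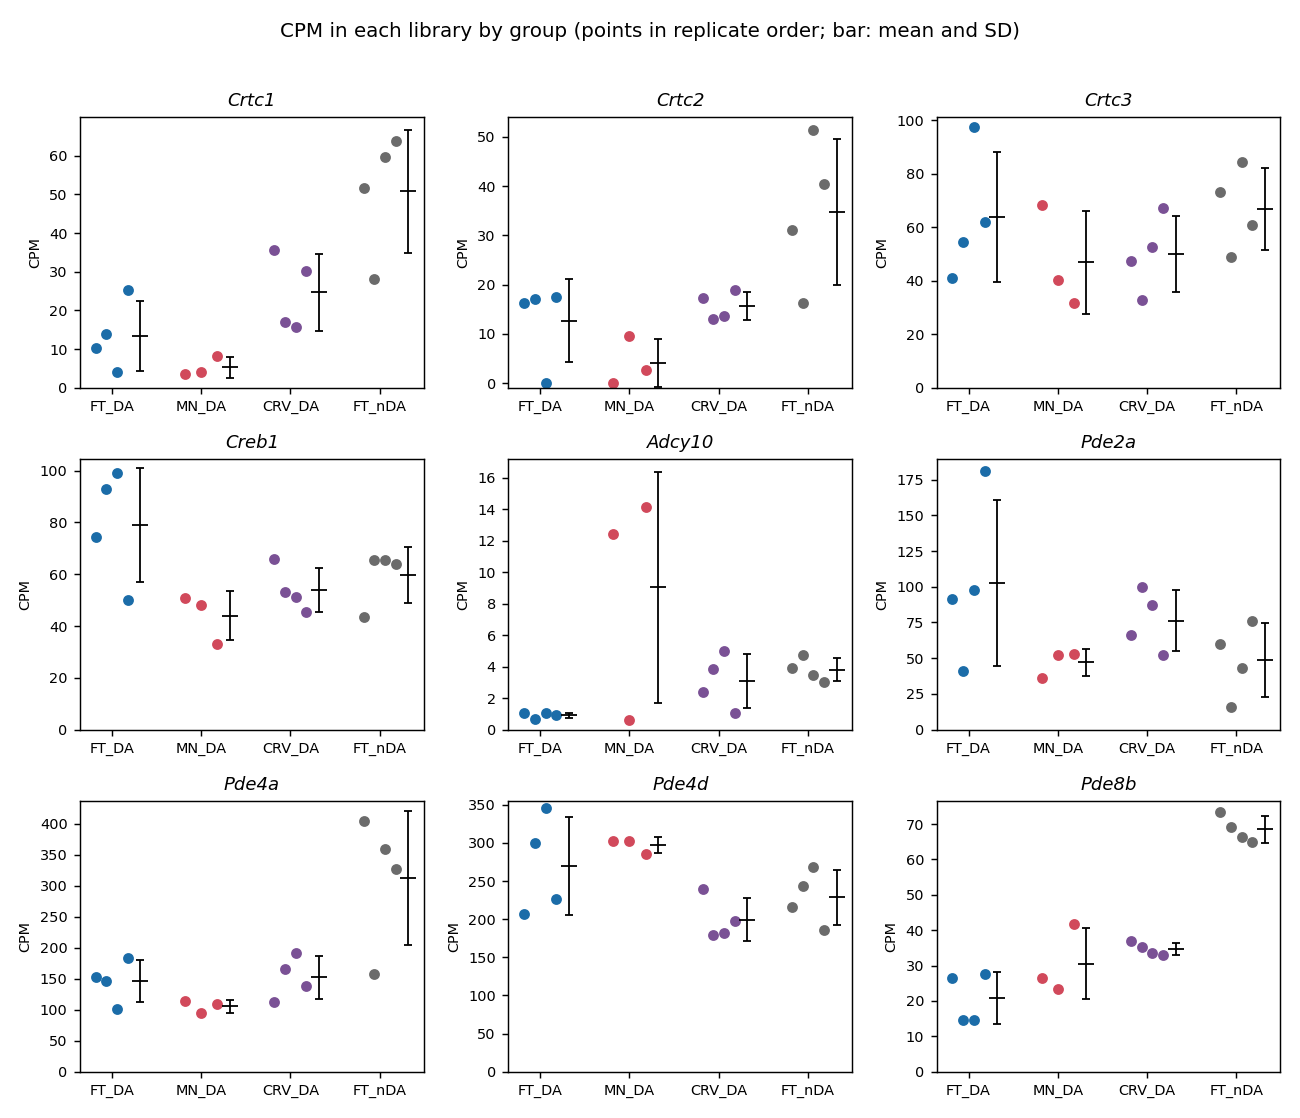
CPM (vertical, linear) in each of the 15 libraries for 9 genes, 1 point per library by group, with the mean and SD as a bar. Crtc1 has its lowest mean in MN_DA, Pde8b and Pde4a are highest in FT_nDA, and for Adcy10 MN_DA splits into 2 libraries above 12 and 1 below 1 CPM.

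Creb1, the main CRE-binding factor of the set (chr1:64532645-64604548, plus strand), was at 74.2, 92.7, 99.1 and 50.1 CPM in FT_DA. After maintenance it was at 50.9, 48.1 and 33.1 CPM, and after abstinence at 65.9, 53.2, 51.1 and 45.4 CPM. Only FT_DA replicate 4 reached down into the other groups' range. The log2 fold change was -0.84 for MN_DA over FT_DA (SE 0.30, edgeR unadjusted p = 0.0143, adjusted p = 0.364) and -0.55 for CRV_DA over FT_DA (SE 0.27, adjusted p = 1). Its transcript has a GC content of 39.6%, the low side of the members, and with the GC offset the first value was -0.98. Atf1 and Crem, the related factors, overlapped between all stages, with log2 fold changes from -0.12 to 0.98.

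Adcy10 (chr1:165485183-165576774, plus strand) had the largest fitted difference of MN_DA over FT_DA, on low levels. Its 4 FT_DA libraries lay together at 1.03, 0.695, 1.03 and 0.913 CPM. In MN_DA it was at 12.4, 0.634 and 14.1 CPM, and in CRV_DA at 2.40, 3.84, 5.01 and 1.09 CPM. Maintenance replicates 1 and 3 (600 and 581 counts) were far above every other library, while replicate 2 (21 counts) was below all of FT_DA. Over FT_DA, the log2 fold change was 3.31 for MN_DA (SE 1.25, edgeR adjusted p = 0.383; DESeq2 adjusted p = 0.0274) and 1.75 for CRV_DA (SE 1.14, adjusted p = 1). All CRV_DA libraries lay above all FT_DA libraries, as they did for Pde8b: 2 of 42 genes, against 2.37% of all genes.

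The other cyclases showed smaller differences. Adcy2 was at 75.2, 81.5, 56.4 and 119 CPM in FT_DA, 162, 95.3 and 124 in MN_DA, and 56.0, 110, 84.4 and 75 in CRV_DA. Maintenance replicates 1 and 3 were above all other dopaminergic libraries, with log2 fold changes of 0.62 for MN_DA over FT_DA (SE 0.31, edgeR adjusted p = 0.469) and -0.65 for CRV_DA over MN_DA (SE 0.31, adjusted p = 0.519). Adcy5 had 34.4, 31.4 and 16.0 CPM in MN_DA and 66.6, 57.5, 59.7 and 29.2 in CRV_DA. Only CRV_DA replicate 4 overlapped with maintenance, and the difference of 0.97 (SE 0.42, edgeR adjusted p = 0.491) became 0.38 with the GC offset; the GC content of Adcy5 is 59.5%. Adcy9, the most abundant cyclase per kb in FT_DA, had log2 fold changes of 0.15 and 0.17 against food training.

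Pde8b, called lower in FT_DA than in FT_nDA, was at 26.4, 23.3 and 41.9 CPM in MN_DA and at 37.0, 35.2, 33.7 and 33.0 in CRV_DA. Every abstinence library was above every food-trained library and below every non-dopaminergic one. Against food training the log2 fold change was 0.55 for MN_DA (SE 0.38, edgeR adjusted p = 0.679) and 0.73 for CRV_DA (SE 0.36, adjusted p = 1).

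Pde4d had 207, 300, 346 and 226 CPM in FT_DA, 303, 303 and 285 in MN_DA, and 239, 179, 182 and 198 in CRV_DA. All abstinence libraries were below all maintenance libraries, the 1 gene of 42 lower without overlap in that comparison (4.57% of all genes). It differed by -0.57 there (SE 0.23, edgeR adjusted p = 0.473) and by -0.43 between CRV_DA and FT_DA (SE 0.22). Pde4a was at 114, 94.1 and 109 CPM in MN_DA and 112, 166, 192 and 139 in CRV_DA. It was lowest in maintenance, at -0.47 against FT_DA (SE 0.26), which became -0.09 with the GC offset and 0.75 with the term for the libraries of low GC slope.

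Pde4c, at 0 counts in every FT_DA and MN_DA library, had 0, 1.95, 0.454 and 0.802 CPM in CRV_DA. Replicate 1 of CRV_DA was at 0 like the other groups, and the test did not call it (edgeR adjusted p = 1). Pde6c and Pde6g appeared in 2 and 1 of the 11 dopaminergic libraries and were not tested between stages. Pde4b, at 67.3, 91.7 and 59.4 CPM in MN_DA and 20.6, 46.4, 59.3 and 70.1 in CRV_DA, overlapped between them (log2 fold change -0.57, SE 0.37).

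Among the dual-specificity enzymes, Pde2a was at 36.3, 52.3 and 53.0 CPM in MN_DA and at 65.9, 99.8, 87.1 and 52.1 in CRV_DA, against 91.2, 41.4, 97.5 and 181 in FT_DA. FT_DA replicate 2 fell within maintenance and the other 3 above it. The log2 fold change of MN_DA over FT_DA was -1.12 (SE 0.42, edgeR unadjusted p = 0.018, adjusted p = 0.377), and with the term for the libraries of low GC slope it was 0.77, the opposite direction. Pde3b, the enzyme that cGMP inhibits, was at 30.5, 33.8, 13.9 and 33.1 CPM in FT_DA, 31.5, 61.0 and 70.2 in MN_DA, and 21.8, 14.8, 35.2 and 33.8 in CRV_DA. Maintenance replicates 2 and 3 were above all other dopaminergic libraries, with a log2 fold change of 0.96 against FT_DA (SE 0.43) and of -1.04 for CRV_DA over MN_DA (SE 0.43).

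Pde1a, a calcium and calmodulin-activated enzyme, was the 1 gene of 42 higher in MN_DA than in FT_DA without overlap (4.29% of all genes). It was measured at 14.5, 22.7, 0.881 and 18.8 CPM in FT_DA and at 35.7, 61.4 and 24.5 in MN_DA. In CRV_DA it was at 26.0, 16.1, 22.0 and 20.9 CPM, overlapping the upper part of FT_DA and the lowest library of MN_DA. That difference was 1.51 on the log2 scale with an SE of 0.72 (adjusted p = 0.441 by edgeR), or 1.11 without FT_DA replicate 3, the lowest library, and its GC content is 41.2%. Pde1b, its relative, ran from 10.4 to 60.5 CPM in FT_DA, 15.0 to 52.4 in MN_DA and 38.8 to 91.3 in CRV_DA, so that the groups overlapped. Pde11a was at 34.3, 55.7 and 24.9 CPM in MN_DA, where replicate 3 lay within the FT_DA range and the other 2 above it (log2 fold change 0.95, SE 0.53).

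Pde6d, a carrier of prenylated proteins rather than an enzyme, had 34.2 ± 15.4 CPM in FT_DA, 20.9 ± 1.68 in MN_DA and 25.2 ± 5.75 in CRV_DA. Pde7a ranged from 29.2 to 120 CPM within MN_DA, wider than the 32.9 to 65.6 of FT_DA. The differences of both against food training lay within -0.71 to 0.64 and did not pass.

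The PKA genes overlapped between all stages. Prkar1a had 492 ± 90.2 CPM in FT_DA (n = 4), 524 ± 109 in MN_DA (n = 3) and 514 ± 39.6 in CRV_DA (n = 4), with log2 fold changes of 0.10 (SE 0.24) and 0.06 (SE 0.22) against food training. Prkacb had 149 ± 34.5, 136 ± 67.7 and 151 ± 40.7 CPM. Prkar2b had the largest log2 fold change of the class: 5.31, 18 and 12.8 CPM in MN_DA against 9.31, 29.4, 42.0 and 18.9 in FT_DA, with overlapping groups (log2 fold change -1.05, SE 0.58, edgeR adjusted p = 0.518). Prkar1b, at 120, 149 and 104 CPM in MN_DA and 139, 127, 163 and 99.8 in CRV_DA, had -0.37 and -0.28 against food training.

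**Figure D4:**
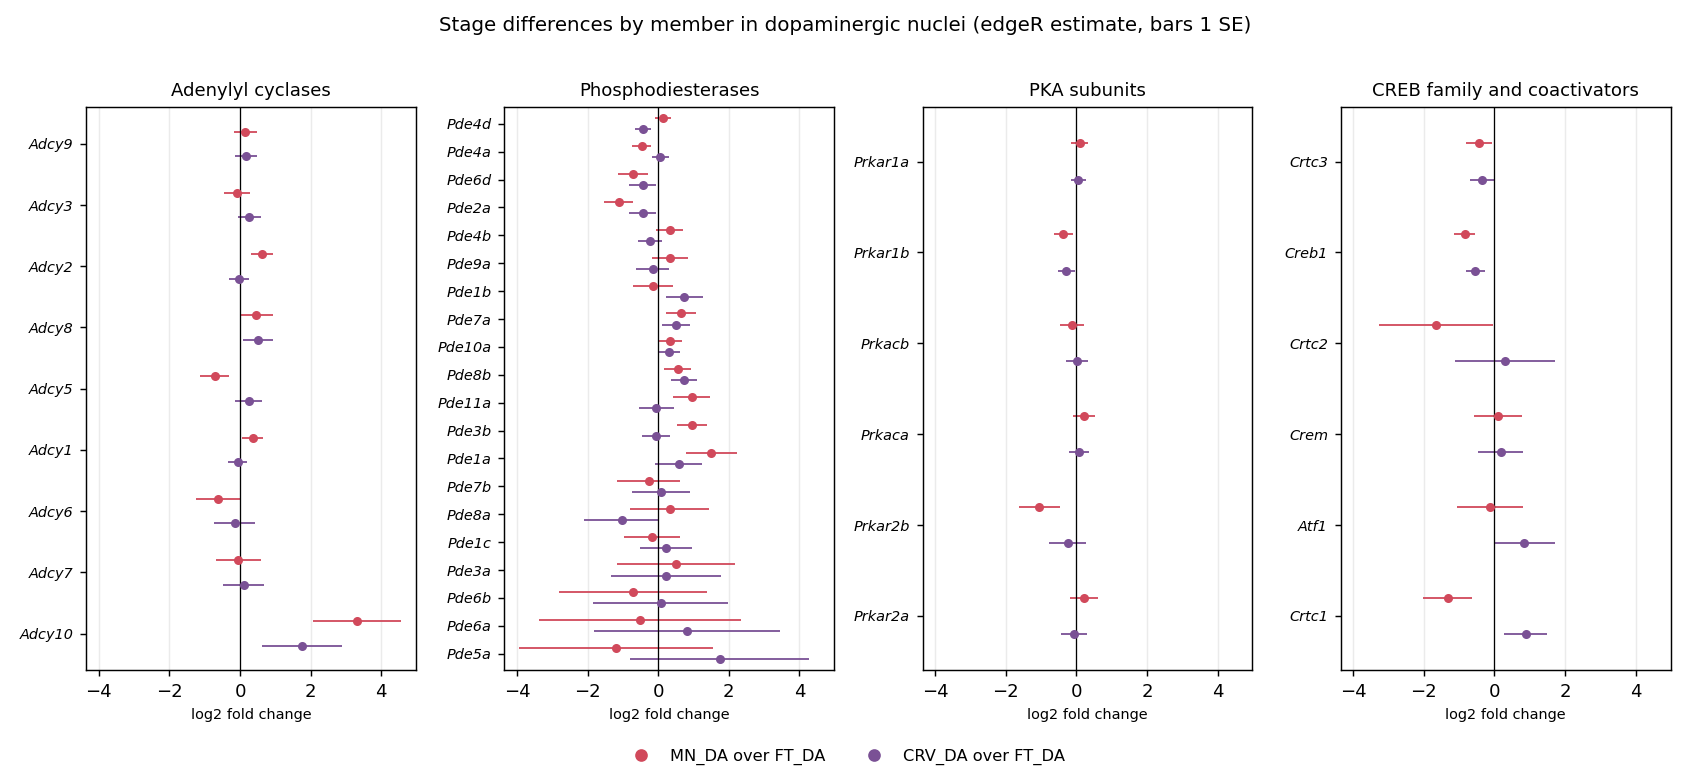
The log2 fold change (horizontal, with 1 SE) of MN_DA (red) and CRV_DA (purple) over FT_DA for 41 genes in 4 class panels, ordered by level per kb in FT_DA; Pde4c is left out. Adcy10 has the largest value for MN_DA, 3.31, and no gene passed the adjusted threshold by edgeR.

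By class, the median log2 fold change of MN_DA over FT_DA was 0.15 for 9 cyclases, 0.14 for 21 phosphodiesterases, -0.02 for 6 PKA genes and -0.64 for the 6 genes of the CREB group, beside -0.01 over all genes. The summed level of the 3 CRTC genes was 18 ± 2.63 CPM per kb in FT_DA, 11 ± 2.93 in MN_DA and 17.4 ± 4.18 in CRV_DA. Across 40 members with a mean of at least 20 counts, Spearman's rho between that log2 fold change and transcript GC percent was -0.3, and across 15950 genes it was -0.229, as a description over genes of the same libraries. For CRV_DA over MN_DA it was 0.257 and 0.265, and for CRV_DA over FT_DA -0.0687 and 0.0261. Of the 20 members above their median GC content of 49.8%, 12 had a negative log2 fold change of MN_DA over FT_DA and 8 a positive one, and of the 20 others 8 and 12. Crtc1, at 56.5%, and Pde2a, at 55.5%, are on the high side. Since all MN_DA libraries share the low GC slope, it cannot be told apart from the stage. Summed oligodendrocyte markers were at 1189 to 1761 CPM in MN_DA and 1155 to 2043 in CRV_DA, against 1788 to 2830 in FT_DA, with 0 of 10 called. The 10 dopamine neuron markers summed to 8132 to 9777 CPM in MN_DA and 5785 to 8898 in CRV_DA. For CRV_DA over FT_DA all 10 had a negative log2 fold change (median -0.27), and all 6 markers of GABA neurons a positive one (median 0.53; 617.5 to 1410 CPM in CRV_DA and 446.2 to 1132 in FT_DA), with 0 called in either list. For MN_DA over FT_DA the signs were mixed in both, 4 positive of 10 and 3 of 6. Astrocyte markers were at 1627 to 1788 CPM in MN_DA and 1036 to 1563 in CRV_DA, which do not overlap, with 0 of 6 called. Glutamate neuron, microglial and vascular markers overlapped between all stages with 0 called. Of 5 precursor markers, 1 was called lower in MN_DA than in FT_DA, where the median log2 fold change of the list was 1.53, and 1 higher in CRV_DA than in MN_DA, with a median of -0.32. The part of these cells in the values of the cAMP genes, those of Pde8b and Crtc1 after abstinence included, was not tested.

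**Figure D5:**
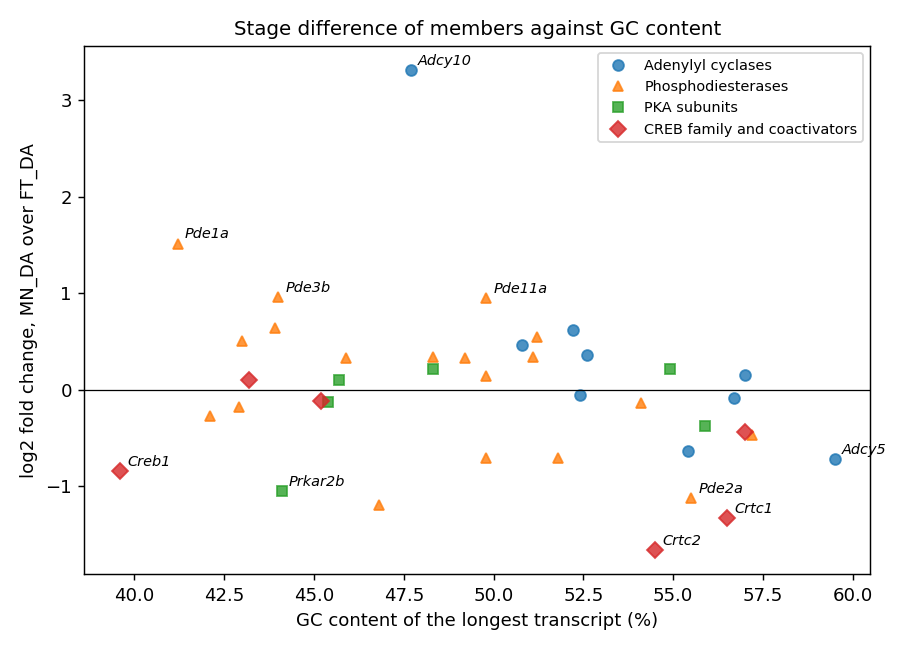
The log2 fold change of MN_DA over FT_DA (vertical) against the GC percent of the longest transcript (horizontal) for 40 members, with a symbol per class. The points fall slightly from left to right, with Adcy10 far above the rest; Creb1 is the leftmost point, at -0.84.

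None of the 36 further pathway genes was called between stages by edgeR (35 were tested), nor any of the 10 CREB target genes. Junb, an immediate early gene of that list, came nearest: 36.4 ± 13.1 CPM in FT_DA (n = 4) and 8.14 ± 1.99 in MN_DA (n = 3), a log2 fold change of -2.16 (SE 0.45, adjusted p = 0.09). In CRV_DA it was at 29.6 ± 8.29 CPM. Ppp1r1b, the PKA substrate known as DARPP-32, had the next lowest adjusted p between these 2 stages, with 31.3 ± 12.0 CPM in FT_DA, 9.03 ± 1.77 in MN_DA and 28.1 ± 7.62 in CRV_DA (edgeR adjusted p = 0.163 for MN_DA against FT_DA). Both were lower in MN_DA than in FT_DA without overlap, as were 4.21% of all genes. In these lists Akap11 and Sik1 were so too, while Akap5 and Crebbp were higher without overlap. Junb and Ppp1r1b are named because they came nearest to the threshold, after their values were seen.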

How the data were processed

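The authors deposited whole-number counts per gene for the 15 libraries, and only this table was tested. A second deposited table, named as normalized with DESeq2, holds 10 of the 11 dopaminergic columns, without FT_DA replicate 3; it differed from the first in 0 cells and so holds raw counts. Why that library is not in it is not given in the sources used here. Per the submitters' processing notes, Trim Galore 0.6.7, cutadapt 1.18, STAR 2.7.10a, StringTie 2.1.5, DESeq2 1.38.3 and the builds mm10 and GRCm38 were named, without roles. How reads in introns and on each strand were counted is not given in the sources used here, nor whether the counts are read tallies or were derived from StringTie's coverage estimates, in which case a 0 can be a missing estimate. The kit was NEBNext Single Cell/Low Input, per the labels' protocols. The samples are titled as numbered replicates, and p-values measure the spread between them. The titles do not say whether FT_DA and FT_nDA samples of the same number came from the same mice. Without the replicate block the test treats them as independent.

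From these counts, edgeR 4.0.16 in R 4.3.3 was run on all genes kept by filterByExpr, with TMM scaling, the quasi-likelihood F-test (two-sided) and Benjamini-Hochberg adjustment over all genes at 0.05. Populations were compared in the 8 food-trained libraries and stages in the 11 dopaminergic ones. SE is the log2 fold change divided by the square root of F. CPM used TMM factors of all 15 libraries, and no fold is given against a group at 0. Lengths, GC content and positions came from GENCODE M21 (GRCm38), promoters from RefSeq (GRCm38.p6), each matched by symbol. Alternatives used DESeq2 1.42.0 and limma 3.58.1, other scalings and filters, a GC offset, and fits without each library.

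Samples with the same number in FT_DA and FT_nDA deviated together (correlations over 8535 genes of 0.116, 0.127, 0.262 and 0.242, each highest with its own number), which is where the pairing comes from.

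The scripts were tested on simulated counts. With the spread of these data many changed genes were missed, and the limit on recovery was then applied only to simulations with a smaller, uniform spread.

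Genes, lists and roles were chosen with earlier results of these data known. The counts over genes above 3 counts in both populations, the list counts with the replicate block, the members' values without FT_DA replicate 3 and the split at the median GC content were added after the values were seen. Named are all members past the threshold, up to 5 higher and 5 lower per comparison with the lowest p-values and a mean of at least 20 counts, the most abundant of each subclass, members at no more than 3 counts throughout a group, and called pathway genes.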

Additional observations from a re-analysis of the deposited data

Results flagged for a closer look

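In groups of 4 libraries, a library stood apart from the other 3 for 6 genes, by Dixon's ratio of its gap to the range among 64 groups of named genes. Chance alone would mark about 1 in 20 such groups. Adcy5 was at 29.7 CPM in FT_nDA replicate 2, where the others were at 56.1 to 59.3. That is the non-dopaminergic library of low GC slope (-0.0248), and Adcy5 has a GC content of 59.5%. A link between them was not tested. Creb1 was at 43.4 CPM in FT_nDA replicate 1 against 63.8 to 65.6. Pde3b was at 13.9 CPM in FT_DA replicate 3, the library with the fewest counts, against 30.5 to 33.8. Pde11a was at 8.95 CPM in FT_nDA replicate 4 against 10.4 to 10.6, a small difference in a tight group. Pde6c was at 0.2 CPM (9 counts) in CRV_DA replicate 1 and Pde6g at 0.127 CPM (7 counts) in CRV_DA replicate 3, with 0 in the other 3 libraries of that group. With the others tied at 0 the ratio is 1 whatever the value, so these 2 carry no information, and 4 genes in 62 groups remain to set against chance.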

How the results depend on the processing

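For the populations, the 2534 called genes became 1643 with at least 10 counts in every library, 3883 with DESeq2, 4266 with limma-voom, 775 with the replicate block and 965 with a term for the 4 libraries of low GC slope in a fit of all 15. The 7 called members became 4, 10, 11, 2 and 3. Higher and lower calls, 719 and 1815 at first, were 916 and 727 with the stricter filter, 413 and 362 with the block, and 568 and 397 with the low-slope term. Leaving out a library gave 1900 to 3740 genes and 5 to 10 members. For MN_DA against FT_DA, 25 called genes became 109, 894, 9, 0 and 0 under the same 5 settings and 12 with the GC offset, and 5 to 78 without a library (78 without MN_DA replicate 2, 5 without replicate 1, 7 without replicate 3, 43 without FT_DA replicate 3, 12 without replicate 4). For CRV_DA against MN_DA, 34 became 69 with the stricter filter, 732 with DESeq2, 2 with the block, 1 with the low-slope term, 22 with upper quartile scaling, 15 in the fit of all 15 libraries, 14 with the GC offset, and 6 to 73 without a library (6, 73 and 7 without MN_DA replicates 1, 2 and 3, and 14, 12 and 6 without CRV_DA replicates 1, 2 and 3). For CRV_DA against FT_DA, DESeq2 called 125 where edgeR called 0. Called members between stages were 0 in all fits run, leaving out a library included (0 to 0), except 1 by DESeq2 for MN_DA against FT_DA and 1 for CRV_DA against MN_DA. Numbers shared between stages did not pair the libraries (correlations -0.351 to 0.109), and the block there changed no call of a member. With the low-slope term, directions turned for Pde2a (0.77) and Pde4a (0.75) in MN_DA against FT_DA, and for Pde4a (-0.69), Pde2a (-1.20) and Pde1b (-0.62) in CRV_DA against MN_DA; the cause was not tested. Of the values of single genes under all alternatives, 693 kept direction and side of the threshold, 29 lost the call, 5 gained it and 5 turned. Calls that rest on libraries listed at 0 are limited by what such a 0 means, which the sources used here do not give.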
